A study of Mus musculus with 8 samples.

Results

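The lysosome, phagosome and NADPH oxidase genes described here were 42 mouse genes chosen by function: 9 cathepsins, 14 other lysosomal hydrolases and luminal cofactors, 8 lysosomal membrane proteins, 3 subunits of the proton pump, the 3 transcription factors Tfeb, Tfe3 and Mitf, and 5 genes of the phagocyte NADPH oxidase. A stretch of accessible chromatin, called a region below, belonged to 1 of these genes when the midpoint of the region lay inside that gene or when the gene was its nearest protein-coding gene within 100 kb. This gave 195 of the 68800 regions of the series, of which 64638 had any gene within that distance. All but 1 of the genes had a region, and Ctsf, which encodes cathepsin F, had none. The number per gene ran from 0 to 12 with a median of 4.0. The mean was 4.64 regions per gene against 3.01 over the 21887 protein-coding genes of the gene table. 5 of the 195 regions lay equally near to a second gene and were kept.

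Open chromatin was mapped by ATAC-seq, which cuts accessible DNA with a transposase loaded with adapters, in AML246, a mouse acute myeloid leukaemia line in which PU.1, the ETS transcription factor encoded by Spi1, is restored by doxycycline (Dox). All cells grew in medium with serum and IL-3. The 8 groups were untreated cells at day 0, cells after 4, 8 and 12 days of Dox at 0.1 µg/mL, a CD11b-high sort of viable cells at day 12, and cells 4, 8 and 12 days after withdrawal of Dox at day 12, when the labels call the cells PU.1 knockdown again. Apart from the CD11b-high sort, viable cells were taken without a marker gate. Each group was 1 library from 1 cell line, so the spread between replicates is unknown, and neither tests between groups nor p-values are given.

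Lysosomes are acidic organelles in which cathepsins and other hydrolases break down material that is delivered by endocytosis, phagocytosis or autophagy. The vacuolar proton pump acidifies their lumen, membrane proteins such as Lamp1 and Lamp2 line it, and TFEB, TFE3 and MITF bind an E-box element, known as the CLEAR element, in promoters of many lysosomal genes. In phagocytes the NADPH oxidase assembles at the phagosome from the membrane pair of Cybb and Cyba, the cytosolic subunits, among them Ncf1 and Ncf4, and the GTPase Rac2, and makes superoxide. These are stated as background and were not measured here.

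The summit lists held between 31957 and 51175 peak summits per library, 1 base each, and the sources used here do not give their read depth. Every summit was widened by 150 bp on both sides, overlapping intervals of all libraries were merged, and a region counts as open in each library that has a summit inside it. A region that was not open had no call, which does not show that it was closed. Each summit has a score, taken here as a −log10 value of p or q, that ranks summits within 1 list. Median scores per list lay between 9.41 and 12.6, so scores of different libraries are set side by side below as values and not as a change. Where a region held several summits of a library, the highest score is given. Of the marker loci examined, Ptprc, a pan-leukocyte gene, had 14 regions, and Spi1, Itgam, Cebpa and Csf2rb of the myeloid list had 7, 6, 6 and 6. The granule protease gene Elane had none, and Mpo, the myeloperoxidase gene, had 1. Open in all 8 libraries were 6 of the 26 regions at myeloid genes, 23.1%, and 3 of the 18 at pan-leukocyte genes, 16.7%. Both shares lay below the 27.9% of all regions. Of the regions at B cell, T cell and non-blood genes, 0 of 5, 1 of 4 and 0 of 3 were, too few to set apart from the myeloid loci. The non-blood regions, at Alb and Neurod1, were open only at day 8, day 12 and in CD11b-high cells, with 3, 2 and 2 called.

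Most starts of these genes were open before PU.1 was restored and were still called at the end of the course. For 35 of the 42 genes the promoter table held a window from 250 bases before to 50 bases after the start of transcription. That window held part of an open region in all 8 libraries at 26 of these genes, 74.3% (exact 95% interval 56.7 to 87.5), against 42.7% of the 17492 genes with a window. In single libraries the count ran only from 26 to 28 of 35. The window was open in no library at 6 genes: Ctsf, Ctss, Idua, Cd63, Gpnmb and Cybb. At the remaining 3 it was open in part of the libraries, in 6 at Cd68, 3 at Cyba and 2 at Ncf1. The intervals given here reflect counting error alone, and regions near each other are not independent. The genes were also chosen with earlier results of these data known, which the intervals do not allow for.

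The E-box CACGTG was found in the promoter windows of Ctsa, Ctsd, Ctsf, Ctsl, Gaa, Glb1, Lamp1, Mcoln1 and Atp6v0d1. These were 9 of 35 genes or 25.7% (12.5 to 43.3), against 8.91% of all 17492 genes with a window. The longer form TCACGTGA, the core of the CLEAR element, which contains the first motif, was found at 4 genes, Ctsa, Ctsd, Mcoln1 and Atp6v0d1. That was 11.4% (3.20 to 26.7) against 1.41%. Both motifs read the same on both strands. Among genes with a promoter open in all 8 libraries the shares were 30.8% of 26 members against 12.9% of 7475 genes for CACGTG. They were 15.4% against 2.46% for TCACGTGA. More than 1 copy of CACGTG stood at 4 member genes, 11.4%, against 0.863% of all genes with a window. These letters are a description of the sequence and not of binding. The upstream 250 bases of those 4 are printed because their windows repeat the motif and hold part of a region open in every library. They run 5′ to 3′ on the gene's strand, from RefSeq on GRCm38.p6 (mm10), with CACGTG in capitals.
Ctsa, chromosome 2, 164833523 to 164833772, plus strand: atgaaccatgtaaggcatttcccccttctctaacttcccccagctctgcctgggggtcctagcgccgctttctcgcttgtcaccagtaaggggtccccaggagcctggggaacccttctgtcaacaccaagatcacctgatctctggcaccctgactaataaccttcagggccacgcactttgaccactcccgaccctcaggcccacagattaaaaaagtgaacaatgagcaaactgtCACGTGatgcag
Ctsd, chromosome 7, 142387828 to 142388077, minus strand: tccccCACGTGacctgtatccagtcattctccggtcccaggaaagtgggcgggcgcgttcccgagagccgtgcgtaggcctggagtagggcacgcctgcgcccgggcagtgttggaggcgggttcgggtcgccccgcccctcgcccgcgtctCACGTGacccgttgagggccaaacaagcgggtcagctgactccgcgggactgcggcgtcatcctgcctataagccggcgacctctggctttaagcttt
Mcoln1, chromosome 8, 3500269 to 3500518, plus strand: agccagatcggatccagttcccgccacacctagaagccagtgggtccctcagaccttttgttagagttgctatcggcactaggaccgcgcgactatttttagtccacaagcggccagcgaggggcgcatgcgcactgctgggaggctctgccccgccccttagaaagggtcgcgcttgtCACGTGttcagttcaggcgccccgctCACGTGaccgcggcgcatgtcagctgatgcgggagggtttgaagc
Lamp1, chromosome 8, 13158911 to 13159160, plus strand: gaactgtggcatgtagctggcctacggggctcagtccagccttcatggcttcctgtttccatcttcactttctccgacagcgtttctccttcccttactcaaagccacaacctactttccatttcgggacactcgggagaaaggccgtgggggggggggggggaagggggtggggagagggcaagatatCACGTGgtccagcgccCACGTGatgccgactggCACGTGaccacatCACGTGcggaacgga

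Ctsa, the gene of cathepsin A, has its second E-box 6 bases past the start, outside the printed stretch. The summits of day 0, 4, 8 and 4 days off lay 2 to 26 bp from that copy, and those of the other libraries 92 to 944 bp from it. At Ctsd, the gene of the aspartic protease cathepsin D, the E-box 98 bases before the start lay 108 bp from the day-0 summit and 4 to 28 bp from the summit of each later library. At Mcoln1, a lysosomal calcium channel, the copy 45 bases before the start lay 8 to 116 bp from the nearest summit. Lamp1, a main glycoprotein of the lysosomal membrane, carried 4 copies, and the one nearest to the start lay 66 to 88 bp from a summit in all 8 libraries. The motif of Ctsl, cathepsin L, was covered by no region, its nearest summits being 342 to 368 bp away, and that of Ctsf lay at least 7404 bp from any summit.

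GAGGAAGT, a form of the ETS site that PU.1 is known to bind, was searched on both strands and found in the windows of Ctsc, Ctss and Gusb. These were 3 of 35 genes or 8.57% (1.80 to 23.1), against 3.64% of all genes with a window. The C/EBP motifs TTGCGCAA and TTGCACAA were in no member window, which allows up to 10.0% at the upper 95% bound. They were found at 0.246% and 1.11% of all genes with a window. Ctsc, the gene of cathepsin C, which activates granule serine proteases, is shown because it holds the ETS-type letters in a window open in all 8 libraries. They are in capitals and lie on the strand opposite to the gene, 151 bases before the start.
Ctsc, chromosome 7, 88277835 to 88278084, plus strand: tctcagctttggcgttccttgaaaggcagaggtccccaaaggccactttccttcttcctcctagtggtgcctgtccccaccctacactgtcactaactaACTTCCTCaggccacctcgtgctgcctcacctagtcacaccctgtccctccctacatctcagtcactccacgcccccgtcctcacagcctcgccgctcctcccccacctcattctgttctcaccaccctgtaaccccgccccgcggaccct

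In the 8 libraries the Ctsc start region (chromosome 7, 88277830 to 88278253) scored 60.2, 56.7, 67.3 and 42.7 at day 0, 4, 8 and 12, 43.4 in CD11b-high cells, and 82.0, 56.6 and 42.9 after 4, 8 and 12 days off. It had the highest score of the cathepsin regions in 5 of the 8 libraries, and Ctsl led at day 4 and Ctsh at day 12 and in CD11b-high cells. The summits lay 42 to 166 bp from the ETS-type letters. At Gusb, the β-glucuronidase gene, the same letters lay 2 to 106 bp from the summits of a start region open in all 8. The window of Ctss, cathepsin S, held the letters and was open in no library.

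Member regions were open in every library, and their share of all open regions moved little over the course. Of the 195, the libraries of day 0, 4, 8 and 12 had 105, 106, 146 and 111 open, the CD11b-high library had 122, and those of 4, 8 and 12 days off had 141, 116 and 100. The day-0 count was 53.8%, where 52.1% of all regions with a gene were open. Day 4 gave 54.4% against 51.0%, day 8 gave 74.9% against 67.3%, and day 12 gave 56.9% against 49.9%. CD11b-high cells had 62.6% against 51.3%, and the times off had 72.3% against 73.3%, 59.5% against 59.6% and 51.3% against 46.0%. List lengths differ between libraries, so the counts are not compared directly. Per 10000 open regions of a library the members took 29.7 (24.3 to 35.9) at day 0, 32.5 (26.8 to 39.2) at day 12 and 34.7 (28.8 to 41.4) in CD11b-high cells. After withdrawal the value was 28.2 (23.7 to 33.2) at 4 days, 28.6 (23.6 to 34.2) at 8 days and 32.1 (26.1 to 39.0) at 12 days. All 8 intervals overlapped.

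**Figure D1:**
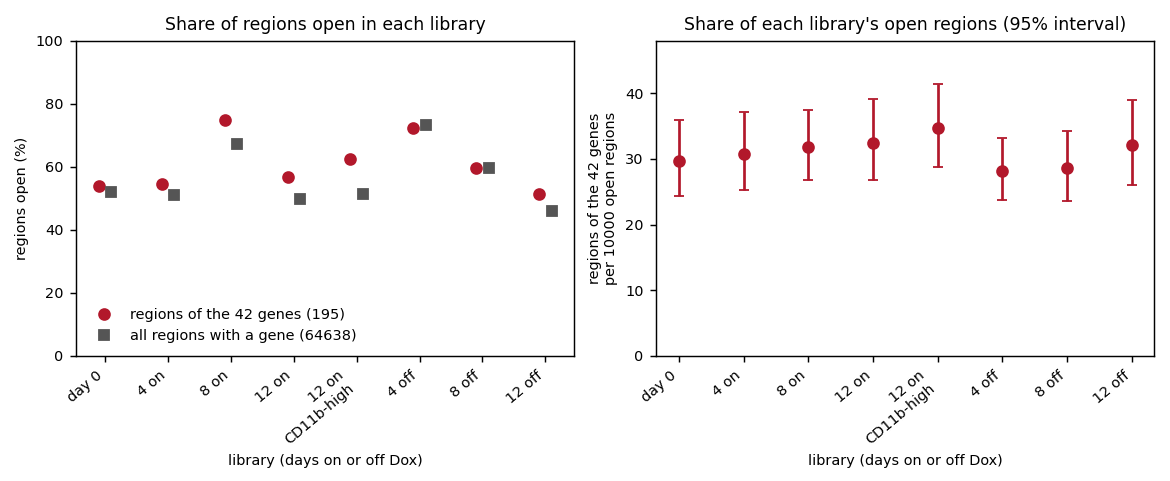
Left, percentage of the 195 regions of the 42 genes (circles) and of all 64638 regions with a gene (squares) that were open in each of the 8 libraries; right, regions of the 42 genes per 10000 open regions of each library, with exact 95% intervals for counting error as bars. The values on the right lie between 28.2 at 4 days off and 34.7 in CD11b-high cells of day 12, and all intervals overlap.

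Open in all 8 libraries were 62 of 195, 31.8% (25.3 to 38.8), against 27.9% of all regions, which lay within the interval. They belonged to 38 genes, and Ctsf, Ctss, Cd68 and Cybb had none. Of all 195 member regions, 60 lay within 1 kb of either gene end, 30.8% (24.4 to 37.8) against 22.6% of all regions. Of the 62 open in all 8, 36 did, 58.1% (44.8 to 70.5), against 44.7% of all regions open in all 8. The median score of the 62 was 20.6 at day 0 and 15.3 at day 12, against 24.9 and 15.7 over all regions open in all 8. Measured from the start, or from the nearer gene end where no start was listed, 37 genes had a region within 1 kb, and at 33 it was open in all 8. The exceptions were Cd68, Cyba, Ncf1 and Ctsh. For Ctsh no start was listed, so which gene end is its start is not given, and a further region at its other end was open in all 8. No region lay that near at Ctsf, Ctss, Gpnmb, Atp6v0d2 or Cybb.

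**Figure D2:**
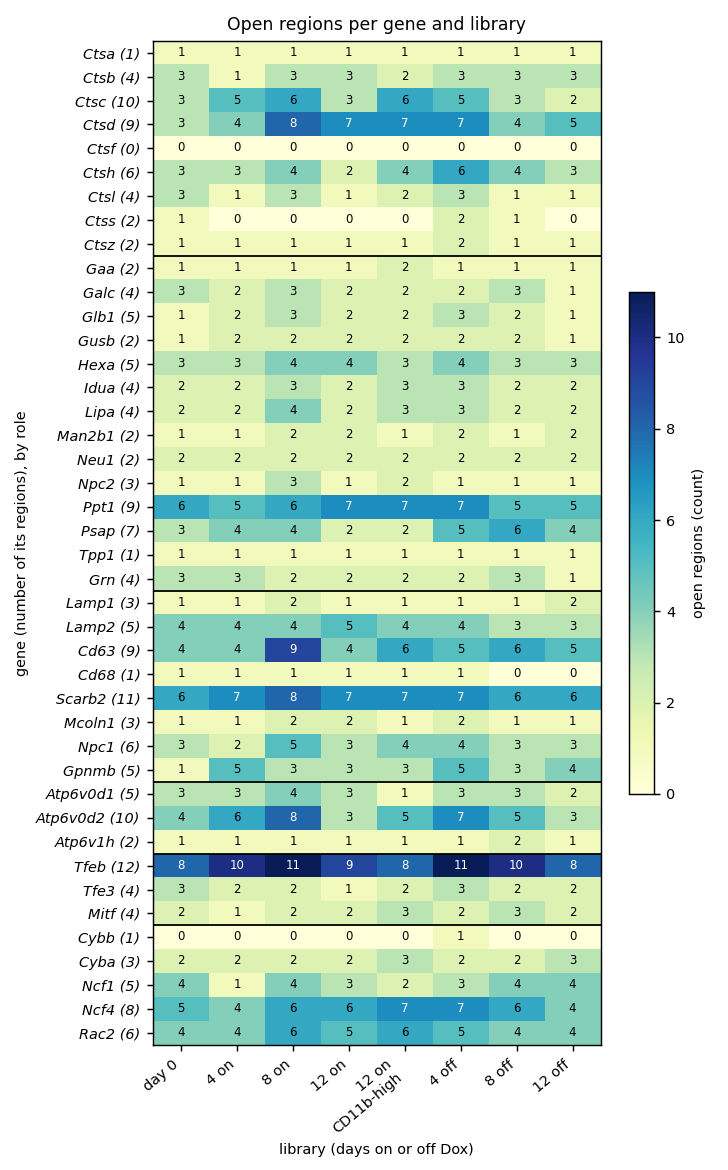
Number of open regions of each of the 42 genes (rows, grouped by role) in each of the 8 libraries (columns), with the count in each cell, its colour showing the count and the number of regions beside each gene's name. Tfeb has 12 regions and Scarb2 11, Ctsf has none, and Ctss, Cd68 and Cybb have libraries with none open.

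Regions called only from day 4 of restoration on and regions called at day 0 alone of these 4 times were both found among the members. A gained region lacked a summit at day 0 and had one at day 4, 8 and 12, and a lost region had one at day 0 and at none of those times. Gained were 17 of 195, 8.72% (5.16 to 13.6), where 4.86% of all regions were gained. Lost were 13, 6.67% (3.60 to 11.1), where 5.49% of all regions were lost. The background lay just under the interval for gained regions and within that for lost regions. Without the day-4 library 29 of the 195 were gained, beside 6999 of all 68800 regions. With day 12 alone 35 were gained, 17.9% against 13.5%, and 29 lost, 14.9% against 15.7%. With scores of at least 10 there were 119 member regions, of which only 6 were gained and 5 lost. Over all 38182 regions at that score, 1479 were gained and 1923 lost. Of those 6 and 5 member regions, 3 and 1 were among the regions named here. Without gained regions that had a day-0 summit within 1 kb, 14 were left, 7.18% (3.98 to 11.8) against 4.30%. Without lost regions that had a summit of day 4, 8 or 12 within 1 kb, 8 were left, 4.10% (1.79 to 7.92) against 4.43%, so both backgrounds then fell within the intervals. 6 genes had gained regions only, 6 lost regions only, 7 both and 23 neither. Of the gained regions 1 lay within 1 kb of a gene end, that of Cyba, and so did 3 of the lost, those of Ppt1, Scarb2 and Cyba.

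**Figure D3:**
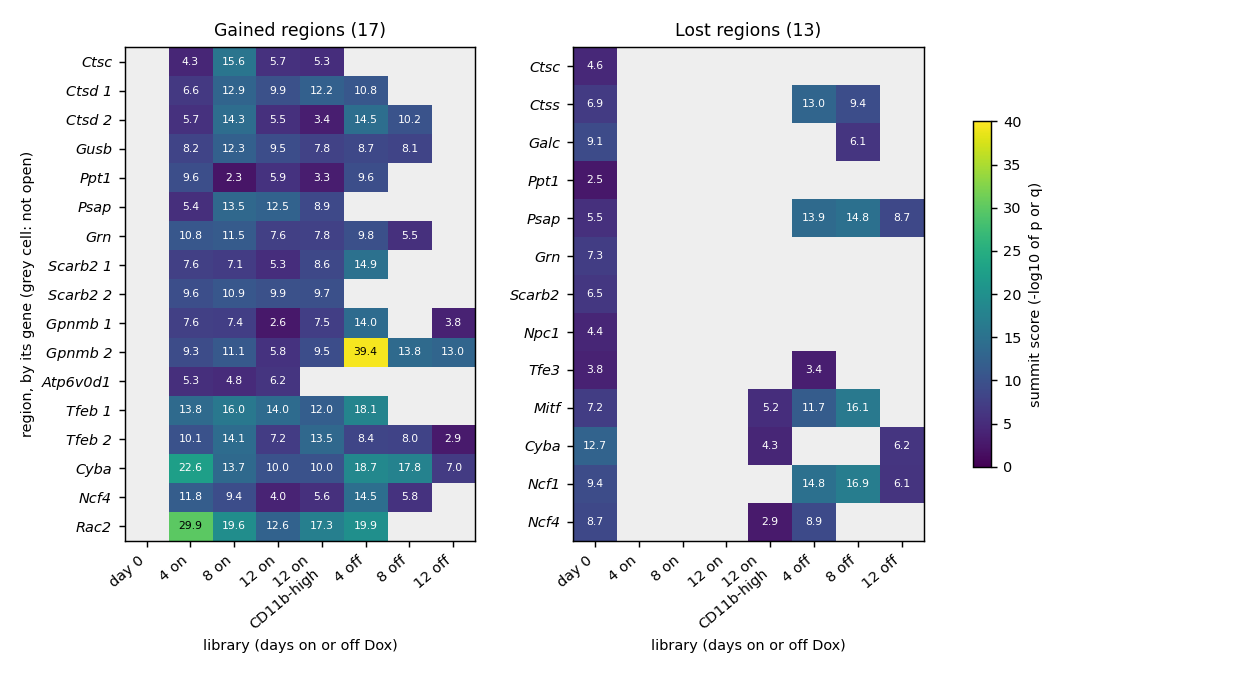
Summit scores (−log10 of p or q, colour and printed value) of the 17 gained regions, left, and 13 lost regions, right (rows, named by gene), in the 8 libraries (columns); a grey cell is a library without a summit. The median score of the gained regions is 7.15 at day 12 and that of the lost regions 6.90 at day 0.

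Cathepsin genes, which encode the acid proteases of the lysosome, had 38 regions. Open in all 8 libraries were 10, 26.3% (13.4 to 43.1) against 27.9% of all regions. Gained were 3, 7.89% (1.66 to 21.4) against 4.86%, and lost were 2, 5.26% (0.644 to 17.7) against 5.49%. For these 3 classes, the background lay within the interval in every role group of members. Upstream of Ctsd lay a cluster with both of its gained regions. The first (chromosome 7, 142397985 to 142398301, 10316 bp before the start) scored 6.60, 12.9 and 9.95 at day 4, 8 and 12, 12.2 in CD11b-high cells and 10.8 after 4 days off, and was not open later. The second (142403569 to 142403971, 15943 bp before the start) scored 5.65, 14.3 and 5.51 at day 4, 8 and 12, 3.43 in CD11b-high cells, and 14.5 and 10.2 at 4 and 8 days off. Between the pair, a region open in all 8 libraries (142399233 to 142399735) scored 8.40 at day 0, 25.3, 27.3 and 13.9 at day 4, 8 and 12, 14.4 in CD11b-high cells and 29.2, 22.3 and 12.8 after withdrawal. The Ctsd start region (142387777 to 142388180) scored 31.6 at day 0 and from 15.0 to 31.1 in the other libraries.

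The gained region of Ctsc lay 70478 bp before the start (chromosome 7, 88207435 to 88207779) and scored 4.30, 15.6 and 5.69 at day 4, 8 and 12 and 5.27 in CD11b-high cells. It was open at no time after withdrawal. The lost Ctsc region (88319796 to 88320096), 4085 bp beyond the gene, scored 4.62 at day 0 and was open in no other library. Ctss, which cleaves the invariant chain of MHC class II in antigen-presenting cells, had its lost region 2903 bp before the start (chromosome 3, 95523731 to 95524035). It scored 6.90 at day 0 and was open again after withdrawal, with 13.0 at 4 days and 9.44 at 8 days. The other Ctss region (95538872 to 95539172) was called only at 4 days off, with 4.26.

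No gained or lost region lay at Ctsa, Ctsb, Ctsh, Ctsl or Ctsz. The start regions of Ctsa (3.52 to 17.5), Ctsb (6.85 to 19.7), Ctsl (21.2 to 61.5) and Ctsz (8.04 to 15.7) were open in all 8 libraries, with the range of scores in parentheses. Z-type cathepsin, the product of Ctsz, is a carboxypeptidase. Inside Ctsb, the cathepsin B gene, a region (chromosome 14, 63135601 to 63136043) scored 11.9 at day 0, was not open at day 4, and scored 3.47 and 3.57 at day 8 and 12 and 15.5, 6.44 and 6.24 after withdrawal. Ctsh, the aminopeptidase cathepsin H, had 2 regions open in all 8, of which the one at a gene end (chromosome 9, 90054307 to 90054684) scored from 32.0 at 12 days off to 64.1 at day 8.

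The 14 hydrolase and cofactor genes had 54 regions, with 22 open in all 8, 40.7% (27.6 to 55.0) against 27.9% of all regions. Gained and lost were 4 each, 7.41% (2.06 to 17.9), against 4.86% and 5.49%. In Gusb the gained region (chromosome 5, 130001331 to 130001681, 1543 bp past the start) scored 8.18, 12.3 and 9.49 at day 4, 8 and 12, 7.85 in CD11b-high cells, and 8.70 and 8.13 after 4 and 8 days off. The region at its start (130002753 to 130003160) was open in all 8 with scores from 30.4 to 69.3. Psap encodes prosaposin, the precursor of the saposins that help lipid hydrolases. Its gained region (chromosome 10, 60260599 to 60260966, 16846 bp before the start) scored 5.39, 13.5 and 12.5 at day 4, 8 and 12 and 8.87 in CD11b-high cells, and was open at no time off. The lost Psap region (60263359 to 60263755) scored 5.47 at day 0 and was open at all 3 times off, with 13.9, 14.8 and 8.71. A day 4, 8 or 12 summit lay 926 bp from it.

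Grn encodes progranulin, a lysosomal and secreted protein. In the gene, the gained region (chromosome 11, 102432015 to 102432702) scored 10.8, 11.5 and 7.60 at day 4, 8 and 12, 7.75 in the CD11b-high sort and 9.76 and 5.52 at 4 and 8 days off, with a day-0 summit 994 bp away. The lost one (102434452 to 102434752) scored 7.31 at day 0 and appeared in no other library. Ppt1, palmitoyl-protein thioesterase, likewise had both: a gained region in the gene (chromosome 4, 122853708 to 122854068) scored 9.61, 2.32 and 5.89 at day 4, 8 and 12, 3.28 in the CD11b-high sort and 9.63 at 4 days off. Its lost region (122836421 to 122836721) scored 2.51 at day 0 alone and lay 328 bp from a later summit, next to a start region open in all 8. Galc, which degrades galactosylceramide, had a lost region beyond the gene (chromosome 12, 98181866 to 98182187) with 9.12 at day 0 and 6.11 at 8 days off.

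At the other 9 genes of this group no region was gained or lost, and each had its start region open in all 8. The lowest and highest scores were 14.9 and 43.3 for Gaa, acid α-glucosidase, 22.5 and 49.1 for Glb1, β-galactosidase, and 5.70 and 26.8 for Hexa, a hexosaminidase subunit. They were 20.4 and 50.7 for Idua, α-iduronidase, 25.1 and 66.4 for Lipa, lysosomal acid lipase, and 6.92 and 25.9 for Man2b1, an α-mannosidase. Neu1, the lysosomal sialidase, had 23.1 and 72.1, and led the group at day 0 and 4. Npc2, which carries cholesterol in the lumen, had 37.0 and 72.0 and led at day 8 and in CD11b-high cells, Lipa led at day 12 and Gusb at the 3 times off. Tpp1, a tripeptidyl peptidase, had 20 and 41.0 as lowest and highest score. Among the 5 genes with such regions, Galc (9.55 to 35.8), Ppt1 (10.2 to 38.9), Psap (13.5 to 43.8) and Grn (9.69 to 47.0) also had a start region open in all 8.

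Lysosomal membrane protein genes had 43 regions, 14 open in all 8, 32.6% (19.1 to 48.5) against 27.9% of all regions. Gained were 4, 9.30% (2.59 to 22.1) against 4.86%, and lost were 2, 4.65% (0.568 to 15.8) against 5.49%. All 4 gained regions were at Scarb2 and Gpnmb. Scarb2 encodes LIMP-2, the receptor that carries glucocerebrosidase to lysosomes. Its first gained region (chromosome 5, 92461344 to 92461689) scored 7.57, 7.11 and 5.29 at day 4, 8 and 12, 8.64 in CD11b-high cells and 14.9 after 4 days off. The second (92504318 to 92504623, 1187 bp past the start) scored 9.59, 10.9 and 9.92 at day 4, 8 and 12 and 9.69 in CD11b-high cells, and was open at no time off. On the other side of the start, a lost region (92506462 to 92506762, 955 bp upstream) scored 6.52 at day 0 only. Between them the start region (92505468 to 92505894) was open in all 8 with scores from 38.3 to 80.3. It had the highest score of the membrane group in 3 libraries, and the start region of Npc1 in the other 5.

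Gpnmb encodes a transmembrane glycoprotein of macrophages and a known target of MITF. Its region inside the gene (chromosome 6, 49050689 to 49051164) scored 9.35, 11.1 and 5.84 at day 4, 8 and 12 and 9.46 in CD11b-high cells, and was open at all 3 times off with 39.4, 13.8 and 13.0. The score at 4 days off was the highest of the gained member regions in that library. The upstream region (49021048 to 49021432, 15278 bp before the start) scored 7.57, 7.43 and 2.59 at day 4, 8 and 12, 7.48 in CD11b-high cells, 14.0 at 4 days off and 3.78 at 12 days off. Cd68, a macrophage sialomucin, had a single region, at its start (chromosome 11, 69665977 to 69666461). It scored 5.45, 12.3, 16.9 and 5.29 at day 0, 4, 8 and 12, 4.31 in CD11b-high cells and 3.99 after 4 days off, and was not open at 8 or 12 days off.

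Npc1, which exports cholesterol from lysosomes, had a lost region inside the gene (chromosome 18, 12224824 to 12225124) that scored 4.36 at day 0 alone. The nearest later summit lay 388 bp away, in a region open in all 8 libraries. Start regions open in all 8 were also those of Lamp1 (19.0 to 49.9), Lamp2 (12.1 to 38.7), Mcoln1 (15.1 to 45.1), the tetraspanin gene Cd63 (5.80 to 31.3) and Npc1 (41.0 to 70.6), again with the lowest and highest score over the 8 libraries. At 1 gene end of Cd63 a region (chromosome 10, 128895482 to 128895805) scored 19.9, 19.4 and 11.5 at day 0, 4 and 8, was open in neither day-12 library, and scored 11.2, 15.2 and 13.0 after withdrawal.

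The proton pump genes had 17 regions, with 3 open in all 8, 17.6% (3.80 to 43.4) against 27.9% of all regions. Gained was 1, 5.88% (0.149 to 28.7) against 4.86%, and lost were 0, with an upper bound of 19.5%, against 5.49%. Atp6v0d1, a subunit of the membrane sector, had the gained region (chromosome 8, 105564722 to 105565118, 1144 bp past the start), which scored 5.34, 4.85 and 6.16 at day 4, 8 and 12. It was the only gained region of a member that was not open in CD11b-high cells, and it was open at no time off. The start region (105565925 to 105566369) was open in all 8 with scores from 15.8 to 50.0. Atp6v1h, a subunit of the cytosolic sector, had a start region with 21.7 to 52.6, which led the group in 5 libraries, and that of Atp6v0d1 led in the other 3. Atp6v0d2, a form of the d subunit known from osteoclasts and macrophages, had 10 regions of which 1 was open in all 8 (chromosome 4, 19895160 to 19895558, 3.14 to 21.5). A region beside it (19894606 to 19894950) was not open at day 0 or 4 and scored 13.4 and 12.7 at day 8 and 12.

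The MiT/TFE factor genes had 20 regions, 6 open in all 8, 30.0% (11.9 to 54.3) against 27.9% of all regions. Gained were 2, both in Tfeb, and lost were 2, at Tfe3 and Mitf. Each was 10.0% (1.23 to 31.7), against 4.86% gained and 5.49% lost of all regions. Tfeb had the most regions of any member. Its first gained region (chromosome 17, 47766651 to 47767055) scored 13.8, 16 and 14.0 at day 4, 8 and 12, 12.0 in CD11b-high cells and 18.1 after 4 days off. It was not open at 8 or 12 days off. The second (47784386 to 47784926), 1088 bp before a downstream start, scored 10.1, 14.1 and 7.15 at day 4, 8 and 12, 13.5 in CD11b-high cells and 8.42, 8.02 and 2.90 at the 3 times off. The region at the first start (47736873 to 47737213) was open in all 8, with 16.4 to 52.7. A neighbouring region (47737410 to 47737997) was open only at day 12 with 14.4, in CD11b-high cells with 17.8 and at 12 days off with 11.5. The region adjoining it (47738010 to 47738446) was open in neither day-12 library and scored 4.35, 7.13 and 6.14 at day 0, 4 and 8 and 8.14, 9.26 and 3.59 at the 3 times off. Whether this pair differed in accessibility or in summit position was not tested.

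Tfe3 had a lost region beyond the gene (chromosome X, 7776712 to 7777024) with 3.81 at day 0 and 3.35 at 4 days off. The lost region of Mitf, the melanocyte and osteoclast factor (chromosome 6, 98105240 to 98105579), lay 84049 bp from the gene. It scored 7.23 at day 0, 5.23 in the CD11b-high sort and 11.7 and 16.1 at 4 and 8 days off, and was not open in the total day-12 library. Their start regions were open in all 8, with 9.87 to 58.9 at Tfe3 and 33.5 to 62.8 at Mitf. The Mitf start led the regions of the 3 factors in 7 libraries and that of Tfe3 at day 4.

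The NADPH oxidase genes had 23 regions, 7 open in all 8, 30.4% (13.2 to 52.9) against 27.9% of all regions. Gained and lost were 3 each, 13.0% (2.78 to 33.6), against 4.86% and 5.49%. At Cyba, which encodes p22phox of the membrane pair, the start held 2 adjoining regions that were open at different times. The region over the start (chromosome 8, 122432785 to 122433124) scored 12.7 at day 0, was not open at day 4, 8 or 12, and scored 4.27 in the CD11b-high sort and 6.18 at 12 days off. The region next to it inside the gene (122432389 to 122432779) was not open at day 0 and scored 22.6, 13.7 and 10.0 at day 4, 8 and 12, 10.0 in CD11b-high cells and 18.7, 17.8 and 6.98 at the 3 times off. The nearest summits of the 2 lay 306 bp apart. Both were kept in the counts, and whether this was a change of accessibility or of summit position was not tested. Another Cyba region (122429979 to 122430637) was open in all 8, with 10.5 to 28.8.

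Cybb, the catalytic partner of Cyba on the X chromosome, had 1 region, 32419 bp from the gene (chromosome X, 9520035 to 9520335), which was open only at 4 days off, with 9.39. Ncf1, the organizer subunit p47phox, had a lost region in the gene (chromosome 5, 134225222 to 134225703) with 9.37 at day 0 and 14.8, 16.9 and 6.09 at the 3 times off. Its start region (134229473 to 134229785) was open only at day 8 with 17.1 and at day 12 with 7.02. Farther upstream a region open in all 8 (134232554 to 134232944) scored from 13.6 to 42.6 and led the oxidase group in 3 libraries. A region inside Ncf4 (chromosome 15, 78257581 to 78258113, 13.7 to 37.5) led in 3 others, and regions of Rac2 in the remaining 2.

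Ncf4, the subunit p40phox, had a lost region upstream (chromosome 15, 78235648 to 78236049) with 8.72 at day 0, 2.94 in the CD11b-high sort and 8.92 at 4 days off. The gained Ncf4 region (78247681 to 78248018) scored 11.8, 9.43 and 4.02 at day 4, 8 and 12, 5.61 in CD11b-high cells and 14.5 and 5.81 after 4 and 8 days off. The region near a gene end (78244619 to 78245148) was open in all 8 and scored 8.29 at day 0, 32.8, 25.9 and 16.7 at day 4, 8 and 12, 21.1 in CD11b-high cells and 25.4, 12.8 and 9.14 after withdrawal. A further region (78258192 to 78258551) was not open at day 0 or 4, scored 22.9 and 13.5 at day 8 and 12 and 25 in CD11b-high cells, and was not open at 12 days off.

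Rac2, the blood-cell GTPase of the oxidase, had a gained region 8752 bp outside the gene (chromosome 15, 78581286 to 78581785) with 29.9, 19.6 and 12.6 at day 4, 8 and 12, 17.3 in CD11b-high cells and 19.9 after 4 days off. Its day-4 score was the highest of the 17 gained regions in that library. A neighbouring region (78581878 to 78582235) scored 20 at day 0, was not open at day 4, and scored 9.28 and 6.36 at day 8 and 12, 7.32 in CD11b-high cells and 19.5, 18.3 and 16 after withdrawal. A day-0 summit lay 445 bp from the gained region. The region at a gene end (78572630 to 78573272) was open in all 8, with 5.65 at day 0, 27.5, 26.2 and 10.1 at day 4, 8 and 12, 27.6 in CD11b-high cells and 27.4, 20.9 and 9.51 after withdrawal.

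**Figure D4:**
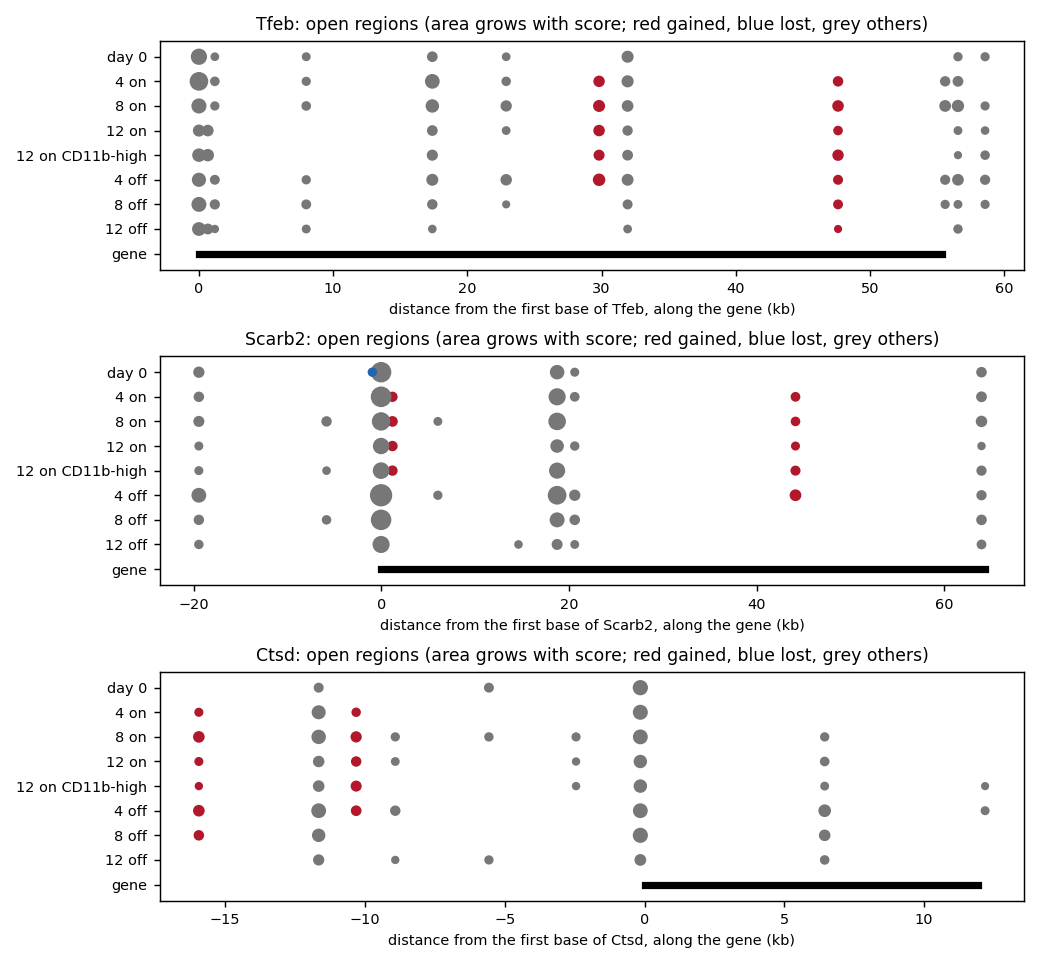
Open regions at Tfeb, Scarb2 and Ctsd (dots, distance along the gene in kb from its first base on the x axis) in the 8 libraries (rows); dot area grows with the score, red marks gained, blue lost and grey other regions, and the black bar is the gene. The gained regions of Ctsd lie 10316 and 15943 bp before the start, and those of Tfeb and Scarb2 lie inside the genes.

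Fewer gained member regions were open with each later time after withdrawal. Of the 17, 13 were open at 4 days off, 76.5% (50.1 to 93.2) against 75.6% of all gained regions, 7 at 8 days off, 41.2% (18.4 to 67.1) against 50.0%, and 4 at 12 days off, 23.5% (6.81 to 49.9) against 26.9%. Each background lay within the interval. The regions open at no time off were those of Ctsc, Psap and Atp6v0d1 and the second of Scarb2. Open at all 3 times were 3, the Gpnmb region inside the gene, the second of Tfeb and that of Cyba, while 5 had a summit at 4 days alone, 4 at both 4 and 8 days, and 1, upstream of Gpnmb, at both 4 and 12 days. Regions open at day 0, 4, 8 and 12 were open in 68, 67 and 64 of 69 cases at the 3 times off, 98.6, 97.1 and 92.8%, beside 98.7, 97.6 and 91.8% of all such regions. Of the 13 lost regions, 6 were open at 4 days off, 46.2% (19.2 to 74.9) against 48.7%, 5 at 8 days, 38.5% (13.9 to 68.4) against 45.0%, and 3 at 12 days, 23.1% (5.04 to 53.8) against 25.5%. Open at all 3 times off among the lost were the regions of Psap and Ncf1.

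**Figure D5:**
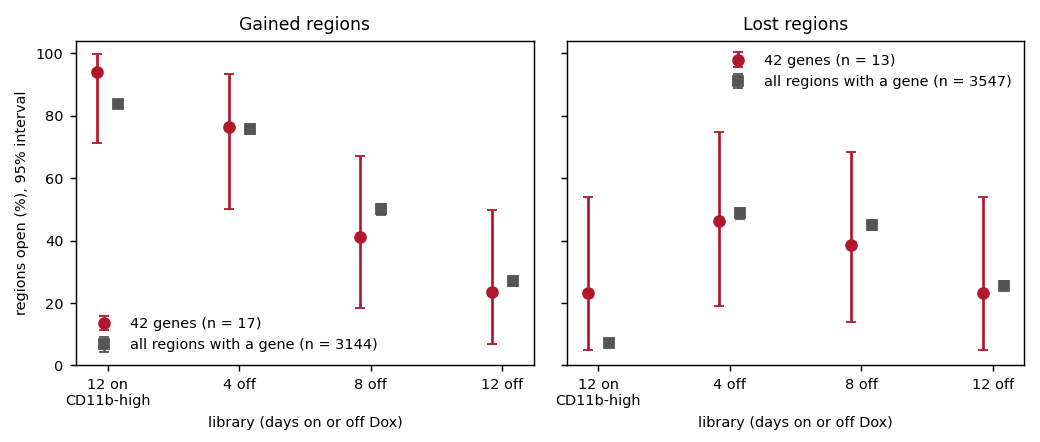
Percentage of gained regions, left, and lost regions, right, with a summit in the CD11b-high library and in those of 4, 8 and 12 days off Dox (x axis), for the 42 genes (circles) and all regions with a gene (squares); bars are exact 95% intervals for counting error. Gained member regions go from 76.5% at 4 days to 23.5% at 12 days off, beside 75.6% and 26.9% of all gained regions.

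Judged from day 0 and day 12 alone, 29 member regions had a summit at day 0 but none at day 12. That was 14.9% (10.2 to 20.7) against 15.7% of all regions. At 12 days off, 14 of those 29 were open, 48.3% (29.4 to 67.5) against 43.2% of all such regions. With a summit at day 12 but none at day 0 there were 35, 17.9% (12.8 to 24.1) against 13.5%. Of those 35, 9 were open at 12 days off, 25.7% (12.5 to 43.3) against 19.2%. Each background lay within its interval. The day-12-only regions open at 12 days off thus included the Gpnmb, Tfeb and Cyba regions above.

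CD11b is an integrin chain on myeloid cells, encoded by Itgam, and the sort took the cells with a high level of it at day 12. Both day-12 libraries had 97 member regions open, 49.7% (42.5 to 57.0) against 40.8% of all regions. CD11b-high cells alone had 25, 12.8% (8.47 to 18.3) against 10.5%, and total cells alone 14, 7.18% (3.98 to 11.8) against 9.15%. The share open in both lay above its background, and the shares of the single libraries had theirs within the interval. Member regions also lay more often within 1 kb of a gene end, 30.8% against 22.6%. Whether this bears on the share open in both was not tested. With scores of at least 10 the single libraries had 12 and 9, and with the nearest gene start CD11b-high cells alone had 15. Of the 17 gained regions 16 were open in CD11b-high cells, 94.1% (71.3 to 99.9) against 83.7%. Of the 13 lost, 3 were open there, those of Mitf, Cyba and Ncf4, 23.1% (5.04 to 53.8) against 7.13%.

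Regions of CD11b-high cells only that scored 5 or more there lay at Ctsc, Lipa, Ppt1, Cd63, Npc1, Atp6v0d2, Tfe3 and Mitf. The highest was 22977 bp before Ctsc (chromosome 7, 88254876 to 88255218), with 4.30 at day 4, 14.2 at day 8 and 16.2 in CD11b-high cells. A second Ctsc region (88277157 to 88277571, 721 bp before the start) scored 4.66 and 7.58 at day 4 and 8, 9.59 in the CD11b-high sort and 8.01 at 8 days off. Thus both day-12 libraries had the start region of Ctsc open, and of these libraries only the sort had the pair upstream of it. The nearer of the pair lay close to the start region, and a shift of summit position was not tested. Atp6v0d2 (19895663 to 19895996) scored 8.16 at day 8, 6.58 in the CD11b-high sort and 7.75 at 12 days off. Lipa (chromosome 19, 34515669 to 34516035) had 4.39 at day 8 and 5.27 in CD11b-high cells, and Npc1 (chromosome 18, 12230033 to 12230371) had 11 and 6.23. Tfe3 (7776339 to 7776639) was called in CD11b-high cells alone, with 5.27. Cd63, a membrane protein of late endosomes, had a region (128900755 to 128901102) with 9.08 at day 8, 5.26 in the CD11b-high sort and 11.6 and 6.87 at 4 and 8 days off. The Ppt1 region (122781742 to 122782329) scored 7.23 at day 0, 6.38 at day 8, 6.36 in CD11b-high cells and 12.8, 10.1 and 8.26 after withdrawal. Apart from the Ctsc pair, all regions of this kind scored below the CD11b-high library's median of 9.44 there.

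Regions of total cells only with a score of 5 or more lay at Hexa, Ppt1, Scarb2, Atp6v0d1, Ncf1 and Ncf4. They included the Ncf1 start region and the gained Atp6v0d1 region given above. The Ncf4 region (78239489 to 78239865) was open in every library but the CD11b-high one, with 15.7, 29.9, 7.32 and 5.02 at day 0, 4, 8 and 12 and 7.79, 13.8 and 10.0 after withdrawal. In Scarb2 a region (92484883 to 92485205) scored 5.47, 7.48 and 6.46 at day 0, 4 and 12 and 13.3, 10.4 and 4.90 after withdrawal. Atp6v0d1 (105534008 to 105534341) had 4.43, 9.29 and 6.06 at day 0, 8 and 12 and 8.60 at 8 days off. Hexa (chromosome 9, 59551453 to 59551852) had 5.29 at day 12 and 4.26 at 4 days off, and Ppt1 (122857944 to 122858260) had 5.94 and 9.93. All 7 regions of this kind scored below the library's median of 9.41 at day 12.

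Regions seen only after withdrawal numbered 18 of 195, 9.23% (5.56 to 14.2), against 14.8% of all regions, so the members' interval lay below the background. Only at 4 days off, the longest list, were 11 open, 5.64% (2.85 to 9.87) against 7.91%. Of these 11, 7 belonged to cathepsins, which was 18.4% (7.74 to 34.3) of the 38 cathepsin regions, with the 7.91% of all regions within the interval. They were 2 of Ctsc with 5.08 and 4.26, 2 of Ctsh with 4.26 and 6.18, and 1 each of Ctsl with 7.54, Ctss with 4.26 and Ctsz with 3.29. The other 4 were the Cybb region, regions of Mcoln1 with 6.91 and Atp6v0d1 with 3.17, and one of Atp6v0d2 with 6.83. All 11 lay under the list's median score of 12.4. Called at 8 days off alone were a Psap region with 4.61 and an Atp6v1h region with 5.17. At 12 days off alone there were regions of Lamp1 with 5.95, Scarb2 with 4.12 and Mitf with 4.14. A Psap region (60269618 to 60270027) was open at all 3 times off with 2.49, 7.10 and 2.06, and a Glb1 region (114418225 to 114418533) at 4 and 8 days with 6.16 and 6.65.

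Other genes of the same compartments, 115 in 6 lists that held no member, had 483 regions, of which 34 were gained, 7.04%, 13 were lost, 2.69%, and 143 were open in all 8, 29.6%. For all regions these percentages were 4.86, 5.49 and 27.9. The list of phagocytic receptors, which also held Dock2, Elmo1 and C3ar1, had the most gained regions of the 6 lists. These were 13 of 106 or 12.3%, with 6 lost, 5.66%. Further lysosomal hydrolases had 7 gained and 1 lost of 90, other membrane and trafficking genes 8 and 3 of 118, other pump subunits 1 and 0 of 39, nutrient-signalling genes 3 and 0 of 56, and other oxidase genes 2 and 3 of 74. Genes with more than 1 gained or lost region were Itgb2, the β chain that pairs with CD11b, with 3 gained and 1 lost, Fcgr1, the high-affinity IgG receptor, with 2 and 1, and C3ar1, the C3a receptor, with 2 and 0. Manba, β-mannosidase, Gnptab, which makes the mannose 6-phosphate tag, and Fnip2, a folliculin partner, had 2 gained and 0 lost each. Dock2, a Rac activator of blood cells, had 2 gained and 1 lost, its relative in engulfment Elmo1 had 1 and 2, and the GTPase gene Rap1a had 0 and 2.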

How the data were processed

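Accessibility was measured by ATAC-seq in 8 libraries, 1 per group. The authors deposited 1 list of peak summits per library, with a score per summit. The deposited scores were taken as −log10 values of p or q, since the lowest of each list lay between 1.30 and 1.39. The sources used here do not say which of them it is, and give no aligner, caller version or depth. The submitters' processing notes name Picard 2.14.0, MACS2 and mouse build mm10. The labels' extraction text also names ChIP, while the library preparation is ATAC-seq. Peaks were called per library.

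On chromosomes 1 to 19, X and Y, summits were widened by 150 bp on both sides and merged over the 8 lists, and 85 to 121 summits per library on other contigs were left out. Regions were assigned to the nearest protein-coding gene span within 100 kb (RefSeq, GRCm38.p6), without exons or introns. All 42 members and 115 other pathway genes matched the table, and 35 members had a promoter window. Shares carry exact Clopper-Pearson 95% intervals, and with 1 library per group no test was run. Values in each library are given for gained and lost regions, for regions of 1 day-12 library with a score of 5 or more and for regions open only after withdrawal, and as ranges for start regions. Pathway genes are named from 2 gained or 2 lost regions. The members and lists were chosen with earlier results of these data known. The planned motif search in regions away from promoters was not analysed here. The class rules were run on simulated lists. Their sites lay far apart, with no missed calls in the libraries that set the class. Splitting or merging of neighbouring summits was therefore not tested. Alternatives varied the extension, score, list length, gene assignment and libraries used. Python 3.11.15, numpy 2.4.6, pandas 2.3.3 and scipy 1.17.1 were used.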

Additional observations from a re-analysis of the deposited data

How the results depend on the processing

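Over 13 alternatives, 107 values of the 13 summary results moved by less than their counting error or 1.5 times and 10 moved by more. With scores of at least 10, gained member regions numbered 6 and lost ones 5 of 119, against 17 and 13 of 195. Over all 38182 regions at that score, 1479 were gained and 1923 lost. Only 3 of those 6 and 1 of those 5 member regions were also gained or lost under the rule of the report. The 3 were regions of Cyba, Rac2 and Tfeb, and the 1 was that of Cyba. At that score all 6 gained regions, 100%, were open at 4 days off, and regions of CD11b-high cells only and of total cells only numbered 12 and 9, against 25 and 14. With day 12 alone set against day 0, 35 member regions were gained and 29 lost. These were 17.9% and 14.9%, against 13.5% and 15.7% of all regions with a gene. Leaving out 1 of the libraries of day 4, 8 and 12 gave 17 to 29 gained regions, the 29 being without day 4, and 13 to 19 lost regions. Lost regions with no later summit within 1 kb were 8. With the nearest gene start, CD11b-high cells alone had 15. Among 30 single-gene results 290 values stayed, 97 moved and 3 reversed. The difference of gained minus lost regions at Npc1 went from -1 to 1 with scores of at least 5 and with lists of equal length, and that of Ncf1 from -1 to 1 with the nearest gene start. The cause of these shifts was not tested. No paired analysis was possible because each group held 1 library and no test was run. The read depth is unknown, a region without a summit is not shown to be closed, and intervals do not cover the spread between cultures.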
